A study of Mus musculus with 6 samples.

Results

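The 9 red cell membrane genes described here are Kel, Rhag, Rhd, Ermap, Gypc, Xk, Slc4a1, Aqp1 and Icam4. They encode blood-group antigens or membrane transport proteins. The genes were chosen by name, with earlier results of these data known. Every probe set that the platform annotation assigned to exactly 1 of these symbols was taken. This gave 12 probe sets for the 9 genes, of 45037 probe sets and 18193 named genes in all. The arrays measured RNA of blood stem and progenitor cells (HSPCs), which were sorted from mouse bone marrow as lineage-negative cells with c-Kit and Sca1 on their surface. The Med12 knockout group (3 arrays) came from Med12Flox;MxCre mice, in which an interferon-responsive promoter drives Cre recombinase, and the control group (3 arrays) from mice that the labels call control without giving their genotype or saying whether they carried Cre. The labels give the cells of both groups as taken 4 days after pI:pC, the synthetic double-stranded RNA that switches Mx-Cre on by inducing interferon, and all mice were of mixed B6/129 background. The labels give no age or sex and do not say whether each array came from its own animal, and the spread behind the p-values, that between these arrays, may be technical. Mx-Cre is active in other interferon-responsive cells besides HSPCs, and the share of sorted cells that had lost Med12 is not given in the sources used here.

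Blood-group antigens sit on proteins that carry out ordinary work in the red cell membrane. Some of them form complexes: the Rh protein needs the Rh-associated glycoprotein to reach the surface, the Kell protein is linked by a disulfide bond to the XK protein, and band 3 (Slc4a1) and glycophorin C (Gypc) tie the lipid bilayer to the membrane skeleton. Erythroid precursors switch these genes on at different steps of maturation, largely under the transcription factors GATA1 and KLF1, and band 3 belongs to the later steps.

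The promoters of 7 of the 9 genes were in the RefSeq table used (build GRCm38.p6, 250 bases before to 50 after the gene start). They were searched on both strands for AGATAA and TGATAA, the letters of a GATA-type motif. The motif was chosen because GATA1 is a known regulator of red cell membrane genes. Promoters of 5 genes held at least 1 match: Kel, Rhag, Rhd, Ermap and Icam4. Xk and Aqp1 held none in this window. Over all 32851 promoters of the same length in the table, 18.6% held AGATAA or TGATAA. The stretches with the matches are shown 5′ to 3′ on the strand of the gene, with the matched letters in capitals (TTATCT and TTATCA are the same motifs read from the other strand). The Kel stretch lies at chr6:41704312-41704408 (minus strand) and holds 2 matches, whose first bases are 56 and 19 bases before the gene start. The others are at chr17:40811091-40811150 (plus) for Rhag, chr4:134864466-134864525 (plus) for Rhd, chr4:119190030-119190089 (minus) for Ermap and chr9:21029362-21029421 (plus) for Icam4, each with 1 match.
Kel: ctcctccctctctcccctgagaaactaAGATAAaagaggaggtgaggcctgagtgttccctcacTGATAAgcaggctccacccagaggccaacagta
Rhag: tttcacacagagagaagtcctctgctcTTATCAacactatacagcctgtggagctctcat
Rhd: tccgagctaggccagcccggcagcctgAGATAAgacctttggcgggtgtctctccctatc
Ermap: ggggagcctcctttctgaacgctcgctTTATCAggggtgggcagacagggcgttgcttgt
Icam4: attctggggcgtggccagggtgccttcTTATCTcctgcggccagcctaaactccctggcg
The KLF-type letters CCACACCC were in none of the 7 promoters and in 3.56% of all. The looser CCNCNCCC was in 4 of the 7 (Rhd, Xk, Aqp1 and Icam4) and in 49.5% of all. A match describes letters in the window, not binding.

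Across the arrays the 9 genes were mostly higher in Med12 knockout HSPCs. Of the 12 probe sets, 10 had higher and 2 had lower mean log2(signal + 16) in knockouts, with a median log2 difference of 1.15 against -0.07 over all probe sets. Kel and Rhag rose (limma, adjusted p under 0.05), no probe set fell, and 10 did not pass. Over all probe sets 0.220% rose and 0.542% fell. The groups did not overlap in 10 probe sets, as in 20.9% of all. In 8 of them, from 7 genes, every knockout signal lay above every control signal, as in 7.61% of all probe sets. In 2 probe sets, both of Slc4a1, every knockout signal lay below every control signal, as in 13.3% of all. The calls depended on the full set of arrays, since 0 of the 12 passed when any 1 array was left out, where at most 10 of the 45037 did.

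**Figure D1:**
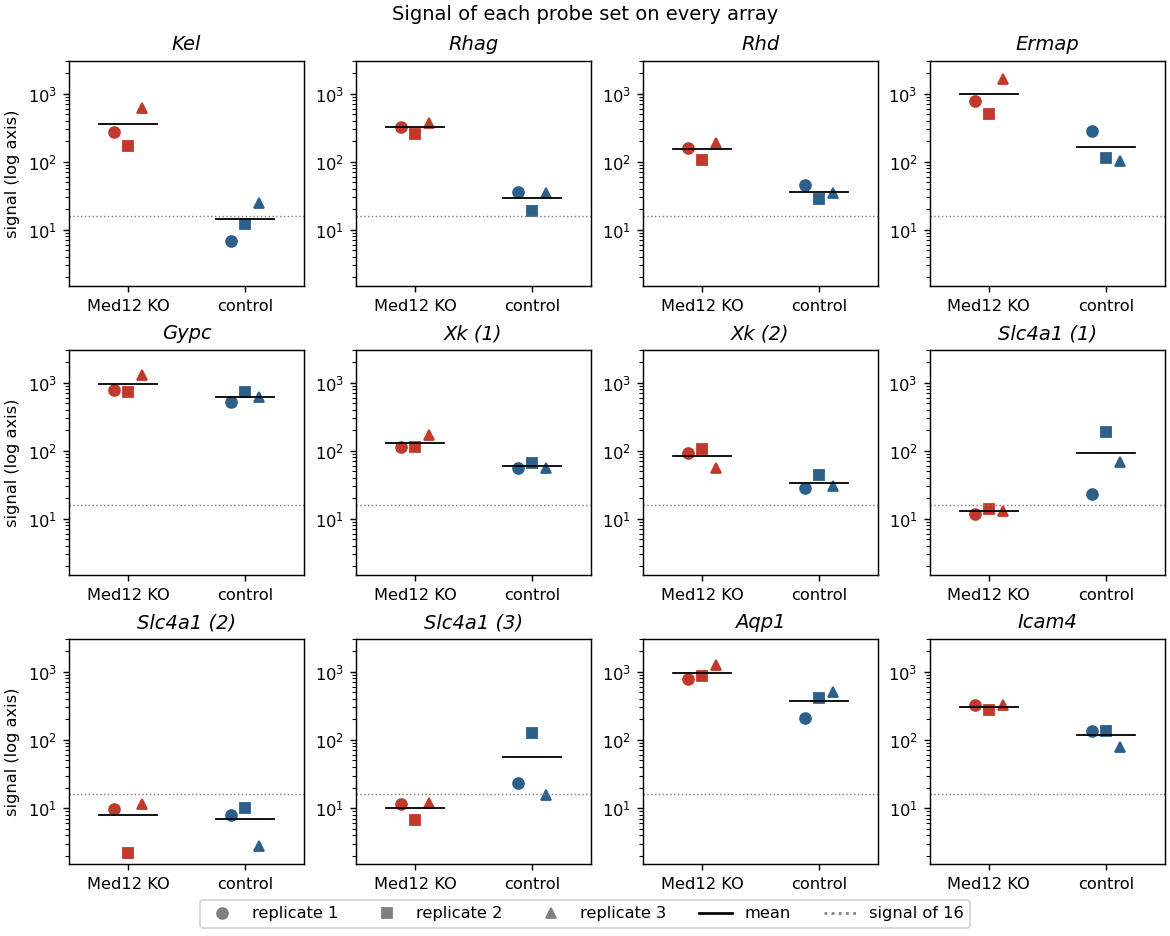
Signal of the 12 probe sets (log axis) on each array, Med12 knockout left of control, with 1 symbol per replicate number, a black line at the group mean and a dotted line at a signal of 16. Knockout points lie above all control points for Kel, Rhag, Rhd, Ermap, Xk (both probe sets), Aqp1 and Icam4, overlap them for Gypc and Slc4a1 (2), and lie below them for Slc4a1 (1) and (3). The bracketed numbers follow the order in which the text gives the probe sets.

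The deleted gene was examined first. Med12 had signals of 89.1, 100.4 and 86.4 on the knockout arrays, against 278.6, 837.4 and 441.6 on the control arrays. The log2 difference was -2.17 (SE 0.38; limma adjusted p = 0.0796). The probe set's place relative to the deleted part is not known here.

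The Kell and XK proteins form 1 complex, in which Kell is a zinc endopeptidase and XK a lipid scramblase. Kel (probe set 1449057_at) had signals of 274.8, 171.9 and 615.6 in knockouts, against 6.9, 12 and 24.6 in controls. The groups did not overlap, and 2 of the 3 control signals were below 16. Kel rose by a log2 difference of 3.46 (SE 0.48, 95% interval 2.29 to 4.62; limma adjusted p = 0.0494). With control signals this low its size depends on the number added before taking logs: it was 4.48 with 1 added and 2.28 with 64 added. Xk was read by 2 probe sets. The first (1450189_at) had signals of 113.5, 111.8 and 170.7 in knockouts, against 56.4, 65.2 and 56.3 in controls. The second (1453866_a_at) had 94.1, 105.7 and 55.9 in knockouts, against 28.1, 44.0 and 30.5 in controls. Both sets separated the groups and gave similar log2 differences, 0.95 (SE 0.19; limma adjusted p = 0.0952) and 0.99 (SE 0.25; limma adjusted p = 0.142), neither of which passed. They ordered the knockout arrays differently, since replicate 3 was the highest on the first and the lowest on the second. Vps13a, the lipid transfer protein that binds XK at the red cell membrane, was at -0.10 (limma adjusted p = 0.876; chosen after seeing its values). Its 5 probe sets ranged from -0.70 to 0.46.

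The Rh complex holds Rhag, a gas and ammonium channel that carries the Rh protein to the membrane, Rhd, which encodes that Rh protein, and Icam4, the Landsteiner-Wiener antigen, an adhesion molecule that binds integrins. Rhag (1419014_at) had signals of 328.0, 252.0 and 373.6 in knockouts, against 35.6, 19.1 and 34.3 in controls. Every knockout signal lay far above every control signal. Rhag rose by a log2 difference of 2.87 (SE 0.22, 95% interval 2.33 to 3.42; limma adjusted p = 0.0234), with mean signals of 318 ± 61.4 in knockouts and 29.7 ± 9.17 in controls (SD, n = 3 each). Rhd (1417049_at) had signals of 159.6, 107.0 and 190.2 in knockouts, against 45.4, 28.1 and 34.5 in controls. The groups did not overlap, and the log2 difference of 1.68 (SE 0.24) narrowly missed the threshold (limma adjusted p = 0.0530). Icam4 (1422930_at) had signals of 325.0, 272.7 and 323.5 in knockouts, against 134.0, 137.2 and 78.1 in controls. Its knockout signals lay close together and above all controls, with a log2 difference of 1.32 (SE 0.22; limma adjusted p = 0.0761). In both Rh genes knockout replicate 2 was the lowest knockout array and control replicate 2 the lowest control array. The epithelial relatives of Rhag were dim: Rhbg, an ammonia channel, had signals of 7.7 to 13.1 in knockouts and 5.8 to 18.5 in controls, and Rhcg was under 4 on every array (both picked after seeing their values).

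Ermap, Aqp1 and Gypc had signals above 100 on every array, and none of them passed. Ermap encodes the erythroid membrane-associated protein of the butyrophilin family, which carries the Scianna antigens. Its probe set (1418909_at) had signals of 780.3, 508.1 and 1641.7 in knockouts, against 277.9, 112.0 and 103.5 in controls. The groups did not overlap, but the knockout signals spanned 1.66 and the control signals 1.30 on the log2 scale. The log2 difference was 2.42 (SE 0.54, 95% interval 1.11 to 3.73; limma adjusted p = 0.117), and 1.97 without knockout replicate 3. Aqp1, the water channel that carries the Colton antigens, is also used by endothelium. Its probe set (1416203_at) had signals of 772.6, 857.5 and 1243.7 in knockouts, against 206.7, 408.7 and 499.2 in controls. All knockout arrays lay above all controls, with a log2 difference of 1.38 (SE 0.36; limma adjusted p = 0.155). Gypc, the Gerbich antigen carrier that anchors protein 4.1R, had signals of 773.6, 740.2 and 1316.2 in knockouts, against 527.6, 740.9 and 606.1 in controls (1423878_at). Here the groups overlapped: only knockout replicate 3 stood well above the controls. The log2 difference was 0.55 (SE 0.27, 95% interval -0.10 to 1.19; limma adjusted p = 0.397), and 0.28 without that array.

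Slc4a1, the chloride-bicarbonate exchanger band 3 that carries the Diego antigens, had the opposite sign. Its first probe set (1416464_at) had signals of 11.8, 13.9 and 13.2 in knockouts, against 23.2, 185.8 and 69.3 in controls. The knockout arrays were uniformly dim, and the control arrays differed widely among themselves. The log2 difference was -1.60 (SE 0.57, 95% interval -3.0 to -0.20; limma adjusted p = 0.260). It was -1.0 without control replicate 2 and -2.18 without control replicate 1. The second probe set (1431743_a_at) was under 16 on every array, with signals of 2.2 to 11.5 in knockouts and 2.8 to 10.0 in controls and a log2 difference of 0.05 (limma adjusted p = 0.950). The last probe set (1434502_x_at) had signals of 11.5, 6.6 and 11.9 in knockouts, against 23.6, 127.2 and 15.7 in controls. Its log2 difference of -1.12 (SE 0.57; limma adjusted p = 0.418) was -0.45 without control replicate 2, which again was the highest array. Without control replicate 3 the difference was -1.54. Band 3 thus had 2 probe sets with lower signals and 1 with none above the dim range, and none of the 3 passed.

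**Figure D2:**
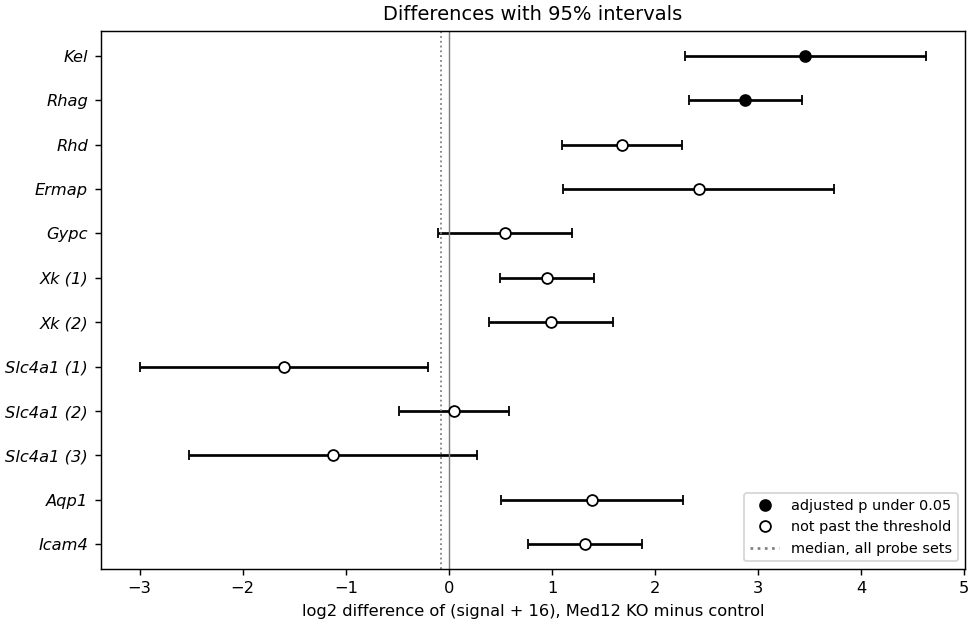
Log2 difference of (signal + 16), Med12 knockout minus control, for each of the 12 probe sets with its 95% interval from limma (n = 3 arrays per group). Filled points passed an adjusted p of 0.05 (Kel at 3.46 and Rhag at 2.87), and the dotted line is the median of all probe sets at -0.07.

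The knockout arrays were not alike in these genes. Knockout replicate 3 had the highest knockout signal in 9 of the 12 probe sets and replicate 2 the lowest in 9. The span over knockout arrays was largest for Kel (1.75 on the log2 scale) and Ermap (1.66), and smaller for Rhag (0.54) and Icam4 (0.24). The 8 erythroid progenitor markers that are not among the 9 genes (Gata1, Klf1, Epor, Car1, Car2, Blvrb, Tfrc and Mfsd2b) were also higher in knockouts. Their summed signal was 8924, 9860 and 13136 in knockout replicates 1 to 3, against 4606, 4362 and 3863 in control replicates 1 to 3. All 8 had higher mean log2 signal in knockouts and 6 of them rose, against 0.352% of all genes that rose. The arrays measured bulk RNA, so more cells of an erythroid kind and more RNA of these genes per cell cannot be told apart. The lineage-negative, Sca1-positive sort is meant to leave out committed erythroid progenitors and maturing red cell precursors. How far it did so was not tested. The part of erythroid progenitors in the rises of Kel and Rhag was not tested.

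Marker lists of other blood cells and of endothelium were summed in the same way. The lineage-negative, Sca1-positive sort is meant to remove mature neutrophils, monocytes and lymphocytes, and several markers on those lists are also used by early progenitors. Over all 18193 genes, 7684 were higher and 10509 lower in knockouts, 0.352% rose and 0.638% fell. Of 10 endothelial markers, which matter for Aqp1, 7 were lower and 3 higher in knockouts (4 lower and 6 higher after median centring, 5 and 5 after quantile normalization), 0 passed (limma, 4 with an unadjusted p under 0.05), and their summed signal was 1285 to 1442 in knockouts and 1654 to 1901 in controls. The angiopoietin receptor gene Tek was at 1.35 (limma adjusted p = 0.185) and Plvap, of the endothelial diaphragms, at 1.59 (limma adjusted p = 0.218), with every knockout signal above every control signal. The adhesion gene Pecam1 was at -1.24 (limma adjusted p = 0.105) and the secreted factor gene Egfl7 at -0.60 (limma adjusted p = 0.278). Pecam1 and Egfl7 were the brightest of the endothelial markers in controls (mean signals of 445 and 641), so they weigh most in the control sums. The endothelial cadherin gene Cdh5, picked after seeing its values, was under 16 on every array. All 8 megakaryocyte markers were higher in knockouts, 1 rose, and they summed to 5083 to 6739 in knockouts and 3178 to 4656 in controls. Their log2 differences ran from 0.03 to 1.62, and the groups did not overlap in 3 of them, as in 4256 of all 18193 genes. The smallest difference was that of Gp6, which was under 16 on every array (picked after seeing its values). Of 7 mast cell and basophil markers 6 were higher, or 5 after loess normalization, and 1 rose, with sums of 2150 to 2331 in knockouts and 1270 to 1483 in controls. All 9 neutrophil and monocyte markers were lower and 5 fell, with sums of 1018 to 1394 in knockouts and 8608 to 14509 in controls. Of 7 lymphoid markers 6 were lower and 3 fell, with sums of 36.0 to 65.0 in knockouts and 1705 to 2449 in controls. The part of these differences in the results on the 9 genes was not tested. Of 5 measured genes of the gate and of stem and progenitor cells, 4 were lower and 1 higher in knockouts and 0 passed by their brightest probe set (limma, 3 with an unadjusted p under 0.05). Kit, which encodes c-Kit, had signals of 515 to 618 in knockouts and 805 to 1425 in controls (log2 difference -0.89; limma adjusted p = 0.152), and its other probe set, at -1.27, passed. The progenitor receptor gene Flt3 was at -3.87 (limma adjusted p = 0.0573) and Cd34 at -1.43 (limma adjusted p = 0.132). Ly6a, which encodes Sca1, was not analysed here.

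A list of erythroid transcription and cytokine regulators was examined next, which also holds Tfrc and is not limited to drivers of these membrane genes. Gata1, Klf1, Epor and Tfrc also stand among the erythroid progenitor markers above, so their calls here are the same ones. Of 16 erythroid transcription and cytokine regulators, 3 rose, 0 fell and 13 did not pass, against 0.352% of all genes that rose and 0.638% that fell. Gata1, the master factor of red cells and megakaryocytes, had signals of 835.5, 860.9 and 1229.9 in knockouts, against 178.1, 309.4 and 201.3 in controls (log2 difference 2.03; limma adjusted p = 0.0424). Klf1, the activator of the adult globin program, had 1115, 1228 and 1549 in knockouts, against 201.8, 403.9 and 334.3 in controls (log2 difference 2.03; limma adjusted p = 0.0490). The erythropoietin receptor gene Epor also rose (log2 difference 2.01; limma adjusted p = 0.0471). Gfi1b, a repressor needed in the red cell and platelet lineages, was at 0.76 (limma adjusted p = 0.108). The list as a whole was evenly split, with 8 genes higher, 8 lower and a median log2 difference of 0.10, against -0.05 over all genes, although 13 were higher and 3 lower after median centring.

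Genes of late red cell maturation did not share 1 direction. Of 13 measured, which include Slc4a1, 8 were higher and 5 lower, and 0 passed (limma, 6 with an unadjusted p under 0.05), with a median log2 difference of 0.33. Fech, the last enzyme of haem synthesis, was at 1.19 (limma adjusted p = 0.0571), although its 4 probe sets ranged from -0.96 to 1.27. Tspo2, an erythroid translocator-like protein, was at 2.34 (limma adjusted p = 0.0630), and the erythroid nuclear gene Hemgn was at 0.92. The mitochondrial iron importer gene Slc25a37 was on the other side at -0.93 (limma adjusted p = 0.146). The alpha-globin gene Hba-a2, picked after seeing its values, had signals of 1577 to 2513 in knockouts and 1520 to 3111 in controls, so the groups overlapped. Its log2 difference was -0.14 (limma adjusted p = 0.889). The beta-globin gene Hbb-b2, also picked after seeing its values, was at 1.13 (limma adjusted p = 0.473). Its signals were 1021.9, 372.6 and 1451.9 in knockouts, against 176.5, 647.5 and 423.8 in controls, so these groups overlapped too. The 2 probe sets of Hbb-b2 ranged from -0.64 to 1.13.

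**Figure D3:**
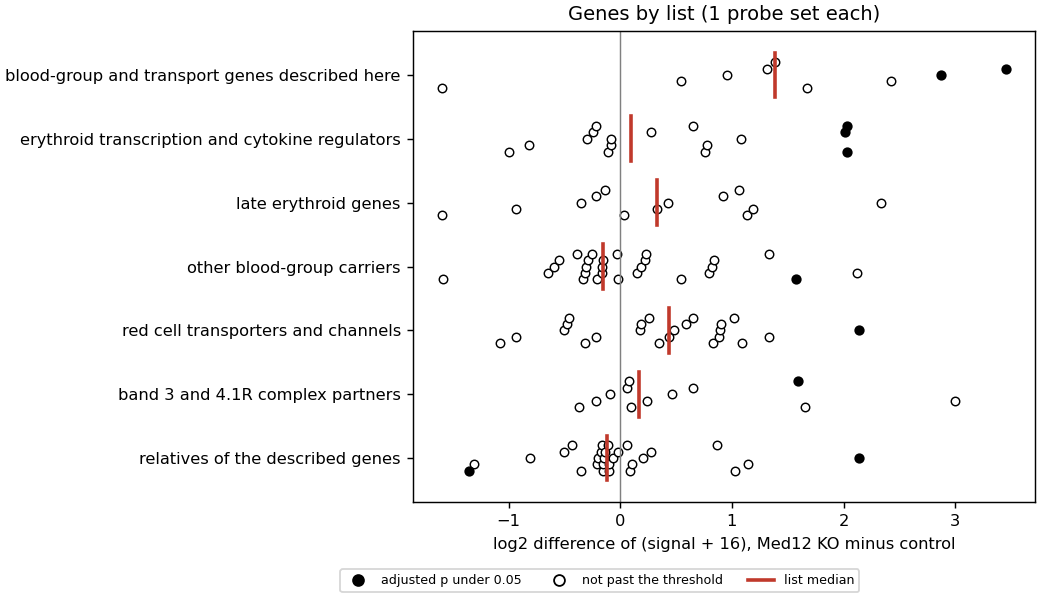
Log2 difference of (signal + 16), Med12 knockout minus control, for each gene of 7 lists, 1 probe set per gene. Filled points passed an adjusted p of 0.05 and red lines are list medians. The median of the 9 described genes is at 1.38 and the medians of the other lists lie between -0.15 and 0.44, and some genes stand in more than 1 list.

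Other carriers of blood-group antigens were mixed. Of 27 measured, 11 were higher and 16 lower, 1 rose, 0 fell and 26 did not pass, with a median log2 difference of -0.15. That sign is not settled, since the median was 0.12 after median centring and 0.02 and 0.01 after quantile and loess normalization. Among the lower genes, Fut1, Abo, A4galt, B3galnt1 and Rhcg were under 16 on every array (picked after seeing their values). Cd55, the complement regulator that carries the Cromer antigens, rose, with signals of 706.7, 552.6 and 696.9 in knockouts, against 205.3, 162.4 and 264.9 in controls. Its log2 difference was 1.57 (limma adjusted p = 0.0477), and its 3 probe sets ranged from 1.57 to 1.89. Cd59a, which blocks the membrane attack complex, was at 2.12 (limma adjusted p = 0.0872), and Abcg2, the urate and porphyrin exporter that carries the Junior antigen, was at 1.33 (limma adjusted p = 0.0755). Gcnt2, the branching enzyme that makes the I antigen, was at -1.58 (limma adjusted p = 0.118). Of its 8 probe sets, all between -3.11 and -0.08, 2 passed.

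Transporters and channels of the red cell membrane were more often higher than lower. Of 23 measured, 16 were higher and 7 lower, 1 rose and 0 fell, with a median log2 difference of 0.44. The call was Aqp9, a channel for water, glycerol and urea, with signals of 1056, 924.2 and 1498 in knockouts, against 224.7, 350.2 and 186.3 in controls. Its log2 difference was 2.14 (limma adjusted p = 0.0483), and its other probe set was at 2.11. Atp1b2, a subunit of the sodium pump, was at 1.09 (limma adjusted p = 0.105). With a gene's probe sets averaged, in place of the brightest, 3 genes of this list rose instead of 1.

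Partners of band 3 and protein 4.1R had 1 call among 12 genes, and 9 were higher and 3 lower. Add2, the beta-adducin gene of the spectrin-actin junction, had signals of 107.1, 119.9 and 155.0 in knockouts, against 36.5, 28.3 and 28.9 in controls. It rose by a log2 difference of 1.59 (limma adjusted p = 0.0314), the highest of 5 probe sets between 0.83 and 1.59. Ank1, the ankyrin that joins band 3 to spectrin, had signals of 318.1, 155.2 and 1065.2 in knockouts, against 58.3, 74.2 and 2.2 in controls. Its log2 difference of 3.0 did not pass (limma adjusted p = 0.193), and its 4 probe sets ranged from -0.35 to 3.0. Dmtn, the dematin gene of the same junction, was at 1.65 (limma adjusted p = 0.0595) and Stom, the stomatin gene, at 0.65 (limma adjusted p = 0.186). Both were the highest of their gene: the 3 probe sets of Dmtn ranged from 0.06 to 1.65 and the 6 of Stom from -0.01 to 0.65.

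Family relatives of the 9 genes were close to no difference as a list. Of 28 measured, 9 were higher and 19 lower, 1 rose (Aqp9, also among the transporters) and 1 fell, with a median log2 difference of -0.12, and 11 were under 16 on every array. The median turned to 0.15 after median centring and to 0.01 and 0.02 after quantile and loess normalization. Slc4a8, a sodium-driven bicarbonate exchanger, fell: its signals were 5.8, 8.3 and 3.0 in knockouts, against 34.8, 52.7 and 32.5 in controls (log2 difference -1.36; limma adjusted p = 0.0493). Its 5 probe sets ranged from -1.36 to 0.09. Slc4a2, the anion exchanger of most other tissues, was at -0.51 (limma adjusted p = 0.405), and Icam2, an integrin ligand of leukocytes and endothelium, was at 1.03 (limma adjusted p = 0.0996).

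The differences were recomputed under 18 other settings. For Slc4a1 (2) 16 and for Slc4a1 (3) 17 of them gave a value, since both fell out with the dimmest 50% and Slc4a1 (2) lay below the floor at 16. Kel, Rhag, Rhd, Ermap, Gypc, Xk, Aqp1 and Icam4 stayed higher in knockouts under all 18. Slc4a1 (1) stayed lower under all 18 and Slc4a1 (3) under its 17. The call did not hold as well: Rhag passed under 10 of the 18 and Kel under 5. Rhd passed under 4, Icam4 under 3, Ermap under 2 and the second Xk probe set under 1. Gypc, Aqp1 and Slc4a1 passed under none, with lowest limma adjusted p-values of 0.210, 0.0797 and 0.129.

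**Figure D4:**
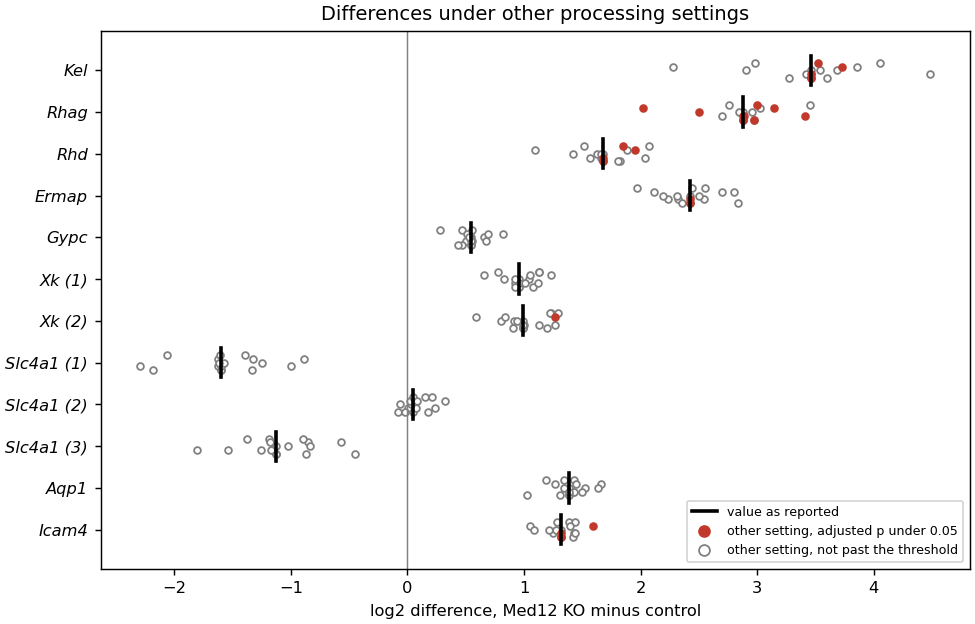
Log2 difference, Med12 knockout minus control, of each probe set under the other processing settings (points) and as reported (black bar), with red points where the adjusted p was under 0.05. Kel spans 2.28 to 4.48 and Rhag 2.02 to 3.46, and red points are also seen for Rhd, Ermap, the second Xk probe set and Icam4.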

How the data were processed

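The deposited value of each probe set on each array was read as a linear signal intensity: the values run from 0 to 11134, and their trimmed mean (2% off both ends) is 150.0 for all 6 arrays. RMA is named, with no version, in the submitters' processing notes, but it gives log2 values, so the method that made the intensities is not known here, nor are detection calls. Per the labels' protocols, 5 ng of total RNA was amplified with a NuGEN Ovation system and biotin-labelled. Median signals were 16.5 to 21.3 in knockouts and 26.7 to 26.9 in controls, and 45.5 to 49.5% of probe sets were under 16 in knockouts and 41.6 to 42.3% in controls. The number of arrays limits the precision.

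Of 45101 probe sets 64 controls were left out. Values were taken as log2(signal + 16), which understates the change of dim genes, and fitted in limma 3.58.1 (lmFit, eBayes; R 4.3.3) over 45037 probe sets (two-sided moderated test, Benjamini-Hochberg adjustment, threshold 0.05). Of these, 34945 had 1 gene symbol, 932 several and 9160 none, in the 2016 platform annotation. Genes of the other lists were represented by their probe set of highest mean. The named genes were the described 9, Med12, Gata1, Klf1, list genes past the threshold and up to 4 per list by unadjusted p; names outside this rule are marked. The described genes and the lists were chosen with earlier results of these data known. All 6 value columns were used. Same-numbered arrays of the 2 groups did not deviate together (r of 0.02, 0.02 and 0.00 across probe sets), so the numbers were not treated as pairs. The steps were tested on simulated data. Alternatives were other priors, weights, a replicate block, normalizations, offsets, filters and leaving out each array.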

Additional observations from a re-analysis of the deposited data

How the results depend on the processing

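The count of probe sets of the 9 genes that rose, 2 as reported, was 2 with a trended and robust prior, 3 after quantile normalization, 5 after median centring and 5 without the dimmest 25% or 50% of probe sets. It was 1 with array weights, after cyclic loess and with an offset of 1, 32 or 64, and 0 with a floor at 16. Leaving out each array gave 0 to 0. The paired fit with a replicate block gave 0, where 0 probe sets of all rose and 0 fell and 6752 had an unadjusted p under 0.05. Over all probe sets, 99 rose and 244 fell as reported (28.9% of calls higher). These counts were 150 and 311 with the trended prior, 431 and 262 after median centring (62.2% higher), 108 and 143 after quantile normalization (43.0%), 86 and 157 after loess, 4 and 38 with an offset of 1 (9.52%), 24 and 60 with the floor, 205 and 510 without the dimmest 25% and 223 and 533 without the dimmest 50%. Leaving out each array gave 0 to 2 rises and 0 to 8 falls. Median centring moved the median difference of all probe sets to 0.20 from -0.07. The second Slc4a1 probe set, at 0.05, ranged from -0.084 to 0.23 when each array was left out, turning to -0.018, -0.064 and -0.084 without knockout replicate 1, knockout replicate 3 and control replicate 3, and had no value with the floor or without the dimmest 50%, where Slc4a1 (3) had none either. With the mean of a gene's probe sets, 2 other blood-group carriers rose and 1 fell, 3 transporters rose, 0 relatives fell and 1 late erythroid gene rose. Of the 12 probe sets' values under other settings, 179 kept their direction and their side of the threshold, 21 lost and 10 gained a call. The causes were not tested. Omitted arrays leave fewer samples. Filters leave fewer probe sets to adjust over, but they also changed the SEs. Without the dimmest 25% the SE went from 0.48 to 0.44 for Kel and from 0.22 to 0.26 for Rhag. Dim signals limit Kel in controls and Slc4a1 in knockouts.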
